A study of Mus musculus with 28 samples.

Results

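The Cyp2d genes encode cytochrome P450 enzymes of the CYP2D family, which oxidise steroids, fatty acids and many drugs in the liver. Of the 18820 genes that a probe set of its own represented on the arrays, 4 are described here: Cyp2d9, Cyp2d10, Cyp2d22 and Cyp2d26. They were chosen by symbol, each through a probe set that names that gene alone, and each had 1 such probe set. Cyp2d9 was chosen with its levels over the groups already known, so its levels and differences are given as a description with no test. The other 3 are its neighbours in the same gene cluster.

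Liver RNA of 28 male C57BL/6J mice, 1 array per mouse, fell into 4 groups that were all on an intermittent diet when sampled. That diet gave moderate-fat food (MF, with 25% of energy from fat) freely every other week, and in the weeks between an allowance of 60% of what control mice ate in energy. The switched group (n = 8) ate the MF food continuously until 12 months of age, then the intermittent diet, and was sampled at 24 months. The lifelong groups started the intermittent diet at 9 weeks of age and were sampled at the ages of 6 months (6 livers), 12 months (7 livers) and 24 months (7 livers). All mice were housed singly during the diets and fasted for 4 hours and again for 6 hours, with a gavage of carboxymethyl cellulose between the fasts. The labels do not give the week of the alternation in which each mouse was sampled, and only males were measured.

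In mice Cyp2d9 is known as a testosterone hydroxylase made mainly in male liver. Its male pattern follows the pulsed secretion of growth hormone in males, which acts in hepatocytes through the growth hormone receptor, the kinase JAK2 and the transcription factor STAT5B. Cyp2d22 is often taken as the mouse counterpart of the human drug-metabolising enzyme CYP2D6. P450 enzymes of this kind carry haem and take electrons from P450 reductase and cytochrome b5.

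The promoters of 3 of the 4 genes were in the RefSeq table used (GRCm38.p6), and the 250 bases before each start are shown so that the letters Cyp2d9 shares with its neighbours can be read. Capitals mark 3 stretches: TTCCGG, the core that ETS-family factors such as GABP bind, CAAAGGGCA, and TTTATAAGG, which holds a TATA box. The sequences lie on chromosome 15 at chr15:82452127-82452376 (plus strand) for Cyp2d9, chr15:82407195-82407444 (minus strand) for Cyp2d10 and chr15:82794246-82794495 (minus strand) for Cyp2d26, each written 5′ to 3′ along the gene.
Cyp2d9: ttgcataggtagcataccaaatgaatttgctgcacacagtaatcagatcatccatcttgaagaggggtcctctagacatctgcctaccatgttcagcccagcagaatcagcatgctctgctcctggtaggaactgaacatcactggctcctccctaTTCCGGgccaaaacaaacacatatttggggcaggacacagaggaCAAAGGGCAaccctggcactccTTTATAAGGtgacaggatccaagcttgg
Cyp2d10: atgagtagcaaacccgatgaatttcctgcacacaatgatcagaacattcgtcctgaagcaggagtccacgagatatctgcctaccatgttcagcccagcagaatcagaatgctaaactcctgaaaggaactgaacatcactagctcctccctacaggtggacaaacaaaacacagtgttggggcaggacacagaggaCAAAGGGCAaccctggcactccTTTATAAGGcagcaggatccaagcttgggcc
Cyp2d26: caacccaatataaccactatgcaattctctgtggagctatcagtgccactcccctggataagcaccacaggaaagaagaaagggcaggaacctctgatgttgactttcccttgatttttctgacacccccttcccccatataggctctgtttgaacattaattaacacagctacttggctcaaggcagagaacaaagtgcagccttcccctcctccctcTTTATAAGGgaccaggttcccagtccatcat

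In global alignment the Cyp2d9 promoter shared 83.6% of its 250 bases with that of Cyp2d10 and 56.8% with that of Cyp2d26. The median over 756 other promoters of the chromosome was 52%, and the highest was 58.8%. Cyp2d10 thus lay above the range of unrelated promoters and Cyp2d26 within it. Of the other measured Cyp2d genes, Cyp2d11 was closer to Cyp2d9 than Cyp2d10 was, at 87.6%, and Cyp2d40 shared 60%. Among the promoters of Cyp2d9, Cyp2d10, Cyp2d11, Cyp2d26 and Cyp2d40, TTCCGG occurred in Cyp2d9 alone, starting at position -94 from the transcription start. Promoters of Cyp2d22, Cyp2d12, Cyp2d13, Cyp2d34 and Cyp2d37-ps were not available and were not searched. Binding of GABP to a site with this core in the Cyp2d9 promoter is part of the gene's known biology, but 12% of all 32851 promoters of this length hold the same letters on either strand. CAAAGGGCA began at -50 in Cyp2d9 and -53 in Cyp2d10, and 0.399% of all promoters hold it. TTTATAAGG began at -28 in Cyp2d9, -31 in Cyp2d10 and -31 in Cyp2d26, and 0.24% of all promoters hold it. Cyp2d11 and Cyp2d40 also hold both of these stretches, and Cyp2d26 lacks CAAAGGGCA. The letters TTCNNNGAA, which STAT5 binds, matched none of these windows and 7.02% of all promoters. The marked stretches other than the ETS core were chosen because Cyp2d9 and Cyp2d10 share them.

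Cyp2d9 was high and even at 6 months, a little lower at 12 months, lower and more scattered at 24 months, and lowest in the switched group. All levels are log2 expression values. In the switched livers Cyp2d9 measured 10.42, 10.43, 10.59, 10.63, 10.70, 10.78, 10.80 and 11.31. In the lifelong livers at 6 months it measured 11.63, 11.64, 11.67, 11.69, 11.69 and 11.69, a span of 0.06. At 12 months the lifelong livers measured 11.45, 11.47, 11.54, 11.57, 11.58, 11.59 and 11.64. At 24 months they measured 10.88, 11.03, 11.22, 11.27, 11.32, 11.39 and 11.41.

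The highest liver at 24 months lay below the lowest at 12 months, and 0.163% of all probe sets were lower without overlap in that comparison. The livers at 24 months also all lay below those at 6 months, as 0.83% of all probe sets did. The groups at 12 and 6 months overlapped through 1 liver of 11.64. Among the switched livers, 7 of 8 lay below every lifelong liver of the same age, and replicate 3, at 11.31, lay among them. The mean was 10.71 ± 0.28 (SD, n = 8) in switched livers, and 11.67 ± 0.03 (n = 6), 11.55 ± 0.07 (n = 7) and 11.22 ± 0.19 (n = 7) in lifelong livers at 6, 12 and 24 months. The SD of Cyp2d9 at 6 months was below the median SD over all probe sets in that group, 0.16, and that in the switched livers was above it (0.28 against 0.18). The order of the group means was 6 months, 12 months, 24 months and switched. The step from 6 to 12 months was the smallest, about the model's error, which pools the spread of all 4 groups. It was larger than the SDs of the groups at 6 and 12 months themselves, 0.03 and 0.07.

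**Figure D1:**
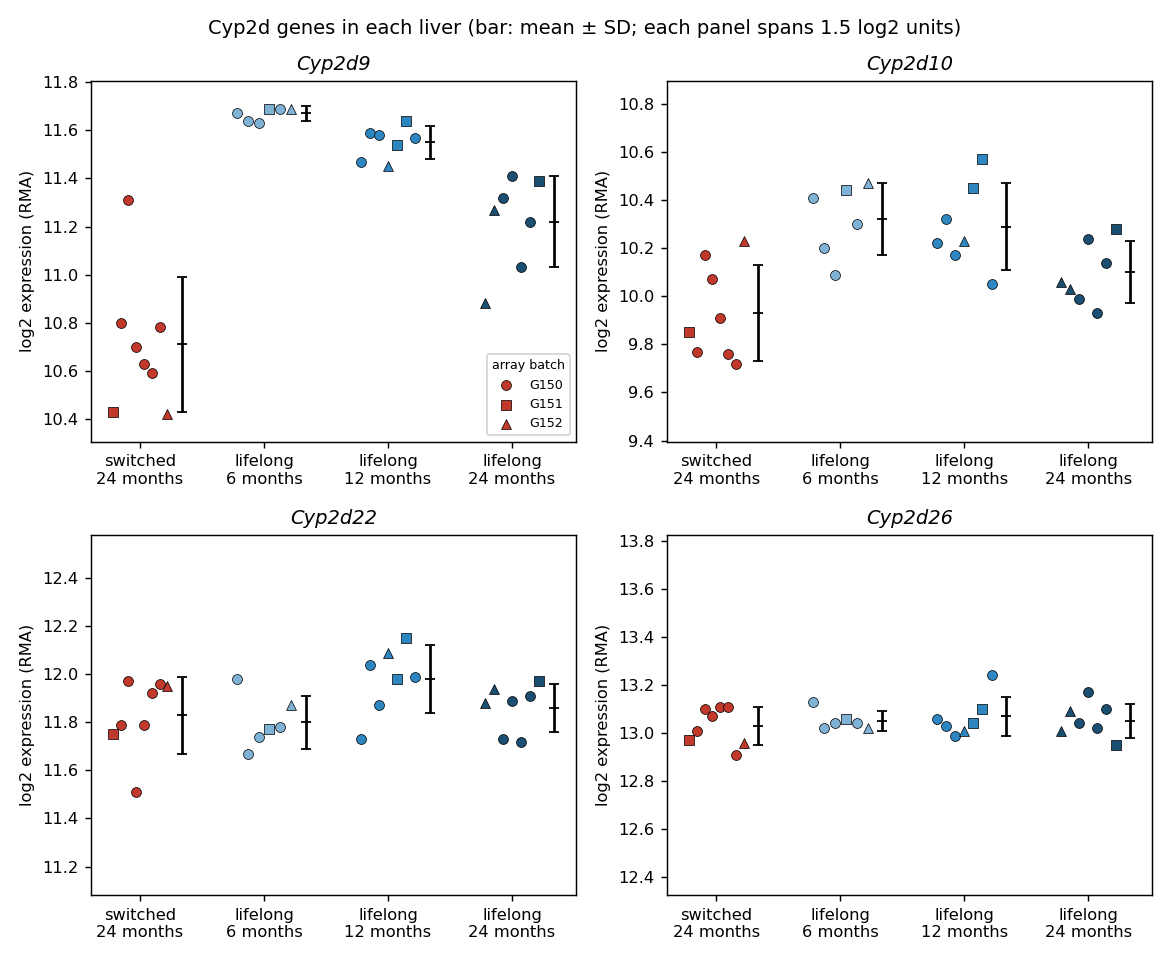
Log2 expression of Cyp2d9, Cyp2d10, Cyp2d22 and Cyp2d26 in each of 28 livers, a point per liver and its shape for the array batch, with mean ± SD beside each group; every panel spans the same number of log2 units. Cyp2d9 sits near 11.67 at 6 months and between 10.42 and 11.31 in the switched group, while the groups of Cyp2d26 lie on top of each other.

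In the linear model with array batch, Cyp2d9 differed by -0.43 (SE 0.10) between 24 and 6 months, or 1.35-fold lower at 24 months. It differed by -0.32 (SE 0.10) between 24 and 12 months and by -0.12 (SE 0.10) between 12 and 6 months. Between switched and lifelong livers at 24 months it differed by -0.54 (SE 0.09), or 1.45-fold lower in switched livers. The lifelong livers at 24 months enter 3 of these differences, so they are not independent of each other. Each array batch, a prefix of the array names, held every group. The switched minus lifelong difference at 24 months was -0.44 in batch G150, -0.95 in G151 and -0.65 in G152. The difference of 24 minus 6 months was -0.41, -0.30 and -0.62 in the same order of batches.

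As a background, 0.0197% of all 35556 probe sets passed an adjusted p of 0.05 (limma, Benjamini-Hochberg over all probe sets) between switched and lifelong livers. Between 24 and 6 months 4.73% passed, between 24 and 12 months 0.0253%, and between 12 and 6 months 0.591%. These shares are the background for the genes tested below. The lists below were chosen with earlier results of these data known, so their counts beside these shares are a description. In whole-liver RNA, fewer hepatocytes and less RNA per hepatocyte cannot be told apart.

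Cyp2d10, the measured gene just before Cyp2d9 in the order of the cluster, ran in the same direction over a narrower range and passed no test. In switched livers it measured 9.72, 9.76, 9.77, 9.85, 9.91, 10.07, 10.17 and 10.23. In lifelong livers it ranged 10.09 to 10.47 at 6 months (median 10.36), 10.05 to 10.57 at 12 months (median 10.23) and 9.93 to 10.28 at 24 months (median 10.06). Every pair of groups overlapped, with 5 of 8 switched livers below the lowest lifelong liver at 24 months. The difference of 24 minus 6 months was -0.23 (SE 0.09, adjusted p = 0.121, limma), with all 7 livers at 24 months below the 6-month mean. Switched minus lifelong livers differed by -0.14 (SE 0.08, adjusted p = 0.736, limma), and the sign was positive in 1 batch (0.18 in G152, 1 switched liver against 2).

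Cyp2d22 and Cyp2d26 passed in 0 of the 4 comparisons. Cyp2d22 averaged 11.83 ± 0.16 in switched livers, and 11.80 ± 0.11, 11.98 ± 0.14 and 11.86 ± 0.10 in lifelong livers at 6, 12 and 24 months (SD, n = 8, 6, 7 and 7). Its largest difference was 0.17 (SE 0.07, adjusted p = 0.307, limma) between 12 and 6 months, and switched minus lifelong was -0.02 (95% interval -0.16 to 0.13). Cyp2d26 averaged 13.03 ± 0.08 in switched livers, and 13.05 ± 0.04, 13.07 ± 0.08 and 13.05 ± 0.07 in lifelong livers. For it, switched minus lifelong was -0.03 (95% interval -0.12 to 0.06) and 24 minus 6 months was 0.01 (95% interval -0.09 to 0.10). The intervals of Cyp2d26 hold no difference as large as that of Cyp2d9 in either comparison. Its probe set was brighter than 99.8% of probe sets, and whether differences are compressed at that level was not tested.

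To set Cyp2d9 beside its neighbours within a liver, the mean of Cyp2d10, Cyp2d22 and Cyp2d26 was subtracted from it and the result centred on all livers. This index ranged -0.85 to 0.00 in switched livers, 0.27 to 0.45 at 6 months, 0.11 to 0.34 at 12 months and -0.33 to 0.17 at 24 months. Its mean was -0.45 ± 0.26 in switched livers (SD, n = 8) and -0.02 ± 0.17 in lifelong livers at 24 months (n = 7). Cyp2d9 was thus low relative to its neighbours, not only in its own level, in the switched livers. The index was built from the pattern that chose Cyp2d9 and carries no test.

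**Figure D2:**
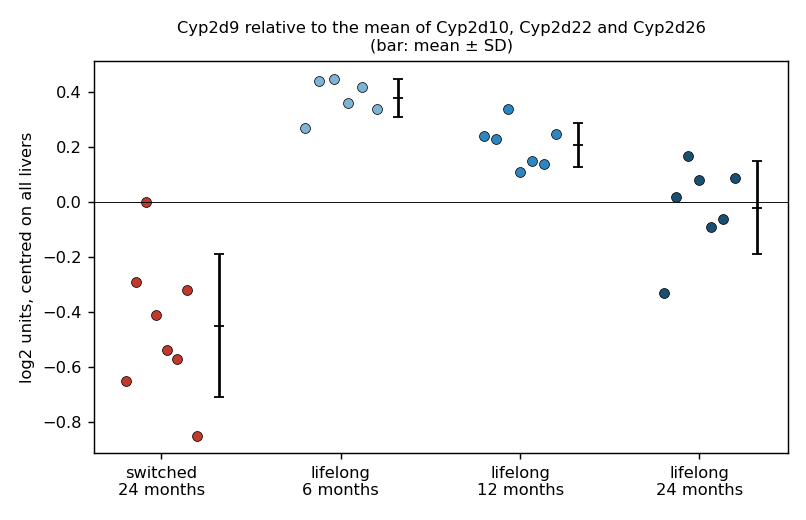
Cyp2d9 minus the mean of Cyp2d10, Cyp2d22 and Cyp2d26 in each liver (log2 units, centred on all 28 livers), with mean ± SD beside each group. The 6 livers at 6 months lie between 0.27 and 0.45, and the 8 switched livers lie at or below 0.00.

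The cluster on chromosome 15 holds 18 Cyp2d genes and pseudogenes in the RefSeq gene table, 10 of them with a probe set of their own. In its order the measured genes are Cyp2d22, Cyp2d11, Cyp2d10, Cyp2d9, Cyp2d12, Cyp2d34, Cyp2d13, Cyp2d37-ps, Cyp2d40 and Cyp2d26. Cyp2d13 and Cyp2d37-ps are annotated as transcribed pseudogenes. Genes of such a family are alike in sequence, and whether probes of one also bound RNA of another was not tested.

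Of the other 6 Cyp2d genes, 1 fell between 24 and 6 months, Cyp2d12, and 0 rose, against 2.63% of all probe sets that fell. The median of the 6 was -0.11, beside -0.02 over all probe sets. Cyp2d12 differed by -0.42 (SE 0.11, adjusted p = 0.025, limma), but its probe set was dim, brighter than 15.7% of probe sets. It measured 2.86 to 3.27 at 24 months and 3.23 to 4.19 at 6 months, and passed in 15 of 23 alternative settings. Adjusted p (limma) was up to 0.0657 when 1 liver was left out. It was 0.117 with only the groups compared, 0.149 in batch G150 alone and 0.59 in G151 and G152 alone. Between switched and lifelong livers 0 of the 6 passed, as did only 0.0197% of all probe sets. The median of the 6 was -0.20 there, beside 0 over all probe sets.

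Cyp2d13 had the smallest p of the 6 in that comparison. It measured 10.53 to 10.95 in switched livers (median 10.78) and 10.81 to 11.23 in lifelong livers at 24 months (median 11.00), and the groups overlapped. All 8 switched livers lay below the lifelong mean, and the difference was -0.24 (SE 0.07, adjusted p = 0.343, limma). Cyp2d40 differed by -0.26 (SE 0.13, adjusted p = 0.698, limma) and Cyp2d37-ps by -0.24 (SE 0.11, adjusted p = 0.615, limma). Cyp2d34 at -0.15, Cyp2d11 at -0.04 and Cyp2d12 at -0.01 completed the list. Cyp2d11 and Cyp2d34 were also dim, brighter than 40.4% and 43.5% of probe sets.

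**Figure D3:**
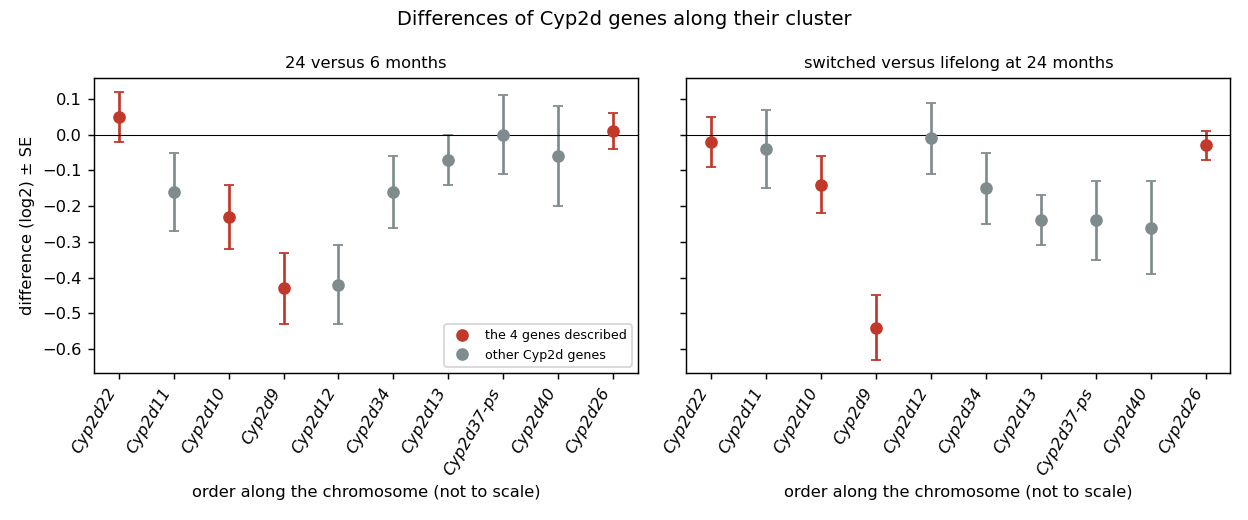
Difference ± SE (log2) of the 10 measured Cyp2d genes in their order along the chromosome, on the left for 24 versus 6 months and on the right for switched versus lifelong livers at 24 months. Cyp2d9 and Cyp2d12 lie lowest on the left (-0.43 and -0.42) and Cyp2d9 lies lowest on the right (-0.54), and Cyp2d22 and Cyp2d26 at the ends lie near 0.

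Measured genes flanking the cluster were Smdt1 and Ndufa6 beside Cyp2d22, and Tcf20 and Tbrg3 beside Cyp2d26. Smdt1, which encodes a subunit of the mitochondrial calcium uniporter, rose between 24 and 6 months by 0.28 (SE 0.07, adjusted p = 0.0204, limma). Ndufa6, a subunit of respiratory complex I, differed by -0.01 (adjusted p = 0.969, limma) and Tcf20 by -0.15 (adjusted p = 0.181, limma). In the comparison of the 24-month groups the 4 flanking genes ranged from -0.05 to 0.06 and 0 passed.

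Across the 28 livers, with batch means removed, the genes of 16529 ranked that were most like Cyp2d9 by Pearson correlation were Nox4 (r = 0.94), Ces3a (0.93), Cyp7b1 (0.93), Adh6-ps1 (0.93), Mup21 (0.93), Slco1a1 (0.92), Hsd3b5 (0.90) and Mup3 (0.90). Cyp7b1 is an oxysterol hydroxylase, Slco1a1 an organic anion transporter, Hsd3b5 a steroid dehydrogenase, and Mup21 and Mup3 are major urinary proteins. The median r over all genes was 0.06. The lowest were Cd36, a fatty acid transporter (-0.92), Nt5e, an ecto-nucleotidase (-0.91), Hao2, a hydroxyacid oxidase (-0.90), and Slc22a27 (-0.90). These points share the 4 groups, so a gene with the same group order scores high.

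With group means removed as well, the highest were Ces3a (0.82), Adh6-ps1 (0.81), Cyp4f14 (0.79), Cyp7b1 (0.79), Pwwp2a (0.76), Hsd3b5 (0.76), Nox4 (0.76) and Slco1a1 (0.73). The lowest were Rsph4a (-0.74), Lgi2 (-0.74), Chil1 (-0.71) and Ostf1 (-0.70). Leaving out the 2 livers farthest from the median of Cyp2d9, Ces3a gave 0.67 and Hsd3b5 0.68. The highest genes then ranged from 0.60 (Pwwp2a and Slco1a1) to 0.80 (Cyp4f14), and the lowest from -0.63 (Ostf1) to -0.50 (Chil1). Within the family, Cyp2d9 had r = 0.81 with Cyp2d13, 0.79 with Cyp2d10, 0.27 with Cyp2d26 and 0.26 with Cyp2d22 when batch means were removed. The other Cyp2d genes ranged from 0.43 (Cyp2d11) to 0.62 (Cyp2d12). With group means also removed, Cyp2d13 gave 0.48, Cyp2d10 0.47, Cyp2d26 0.20 and Cyp2d22 0.42. Without those 2 livers the values were 0.32, 0.17, 0.08 and 0.28 in the same order. The other Cyp2d genes then ranged, with all livers, from 0.23 (Cyp2d34) to 0.35 (Cyp2d37-ps).

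With Cyp2d genes left out of the ranking, each neighbour had another gene than Cyp2d9 did as its nearest. Nox4, the nearest of Cyp2d9, was also among the 4 nearest of Cyp2d10 (r = 0.80). Cyp2d9 itself had r = 0.79 with Cyp2d10. Cyp2d10 was most like Mup5 (r = 0.84), Cyp2d22 most like Crebl2 (0.79) and Cyp2d26 most like Ftcd (0.77), a folate enzyme, all with batch means removed.

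The sex-biased lists were chosen with earlier results of these data known, so their counts are a description. Male-biased liver genes other than Cyp2d9 numbered 18 measured of 19. Their differences were negative for 18 of 18 in both comparisons of 24 months with a younger age, for 15 between 12 and 6 months and for 17 between switched and lifelong livers. Between 24 and 6 months 7 of the 18 fell, against 2.63% of all probe sets, and 0 rose, with a median of -0.62 beside -0.02 over all probe sets. Ugt2b38, a glucuronosyltransferase, fell by 1.05 (SE 0.12, adjusted p = 6.56e-05, limma), with 8.63 ± 0.28 at 24 months (SD, n = 7) and 9.68 ± 0.16 at 6 months (n = 6). Gstp1, a glutathione transferase, fell by 0.56 (SE 0.11, adjusted p = 0.00407, limma). Both passed without any 1 liver. Cyp4a12b, a fatty acid hydroxylase, fell by 1.28 (adjusted p = 0.018, limma; up to 0.0519 without 1 liver), and Cyp7b1 fell by 0.93 (adjusted p = 0.033, limma; up to 0.125). Selenbp2, a selenium-binding protein, fell by 1.11 (adjusted p = 0.021, limma; up to 0.0984).

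Between switched and lifelong livers 1 of the 18, Susd4, fell, against 0.00562% of all probe sets, and the median was -0.53 beside 0. This count too comes from a list chosen with earlier results known. Susd4, a regulator of complement, measured 7.94 ± 0.62 in switched livers (SD, n = 8) and 9.19 ± 0.43 in lifelong livers at 24 months (n = 7), a difference of -1.24 (SE 0.21, adjusted p = 0.0341, limma). It passed in 6 of the 15 fits that left out 1 liver. Slco1a1 differed by -1.52 (SE 0.35, adjusted p = 0.188, limma), Gstp1 by -0.52 (SE 0.10, adjusted p = 0.0671, limma) and Hsd3b5 by -3.47 (SE 0.90, adjusted p = 0.247, limma). Hsd3b5 ranged 3.61 to 9.22 in switched livers and 3.44 to 10.50 in lifelong livers at 24 months, so both groups held livers with very low and high values. Ugt2b38, the gene of the list with the smallest p between 24 and 6 months, differed by -0.02 (SE 0.12, adjusted p = 0.988, limma) here. Between 12 and 6 months 0 of the 18 passed (median -0.18 beside 0), against 0.591% of all probe sets. Between 24 and 12 months 0 passed (median -0.38 beside -0.02), against 0.0253% of all probe sets.

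The female-biased list was likewise chosen with earlier results of these data known, so its counts are a description. Female-biased liver genes numbered 15 measured of 23. Their differences were positive for 12 of 15 between 24 and 6 months, for 9 between 12 and 6 months and between 24 and 12 months, and for 15 between switched and lifelong livers. Between 24 and 6 months 2 of the 15 rose, against 2.1% of all probe sets, and 0 fell, with a median of 0.28. Cyp17a1, a steroid hydroxylase, rose by 2.11 (SE 0.24, adjusted p = 4.32e-05, limma) and Cyp2b9, a P450, by 3.22 (SE 0.74, adjusted p = 0.0129, limma). In switched against lifelong livers 2 of the 15 rose, against 0.0141% of all probe sets, and 0 fell, with a median of 0.60. Cyp2b13, a P450 of the same family, measured 7.07 ± 0.80 in switched livers (SD, n = 8) and 3.83 ± 1.10 in lifelong livers at 24 months (n = 7), a rise of 3.26 (SE 0.37, adjusted p = 0.000118, limma). Hao2 rose by 1.80 (SE 0.27, adjusted p = 0.0094, limma; up to 0.0559 without 1 liver). Between 12 and 6 months Cyp17a1 rose by 1.25 (SE 0.24, adjusted p = 0.0275, limma; up to 0.08 without 1 liver), 1 of the 15, against 0.363% of all probe sets, and between 24 and 12 months 0 passed (median 0.11).

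Liver by liver, Cyp2d9 had a positive r with 18 of 18 male-biased genes (median 0.82, batch means removed) and a negative r with 15 of 15 female-biased genes (median -0.68). With group means removed the medians were 0.46 and -0.29. Hepatocyte markers, described below, also had a positive r for 7 of 8 (median 0.49, batch means removed). With group means removed 5 of the 8 were positive (median 0.18). The growth hormone, STAT5 and transcription factor list had a median of 0 both ways. The mean of the male-biased list ranged -1.05 to -0.14 in switched livers, 0.43 to 0.88 at 6 months, 0.17 to 0.56 at 12 months and -0.80 to 0.28 at 24 months. The switched liver highest in Cyp2d9 was also the highest switched liver for the male-biased list, at -0.14, but the switched liver lowest in Cyp2d9, at 10.42, was the second highest there, at -0.67. The lifelong liver lowest in Cyp2d9 at 24 months was the lowest of its group for the list, at -0.80. These lists share their livers with Cyp2d9 and are a description.

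**Figure D4:**
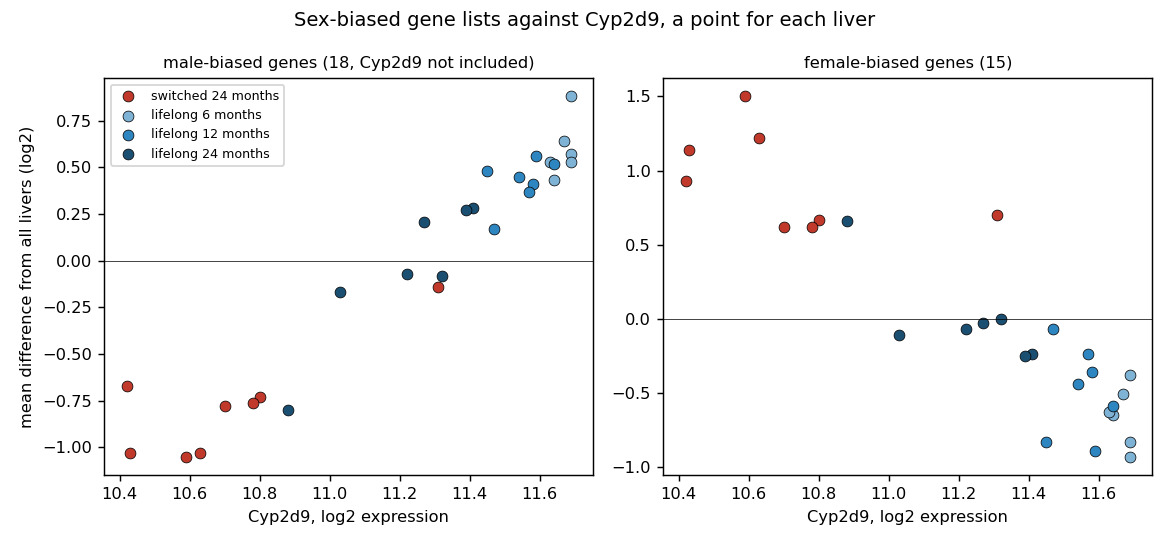
Mean difference from all livers (log2) of 18 male-biased genes (left) and 15 female-biased genes (right) against the log2 expression of Cyp2d9, a point for each of 28 livers coloured by group. Livers with low Cyp2d9, mostly switched ones, have low male-biased and high female-biased means.

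Genes of the growth hormone and STAT5 pathway and of hepatocyte transcription factors, 19 of 23 measured, passed in 0 cases in each of the 4 comparisons. Over all probe sets 0.0197% to 4.73% passed, so 0 of 19 does not show that these genes were unchanged. Ghr, the growth hormone receptor, differed by -0.16 (SE 0.06, adjusted p = 0.106, limma) between 24 and 6 months and by -0.03 (adjusted p = 0.942, limma) between switched and lifelong livers. Bcl6, a male-biased repressor, measured 7.55 ± 0.77 in switched livers (SD, n = 8) and 8.33 ± 0.94 in lifelong livers at 24 months (n = 7), a difference of -0.84 (SE 0.33, adjusted p = 0.556, limma). Cux2, a female-biased repressor that the female-biased list also holds, differed by 0.30 (SE 0.09, adjusted p = 0.379, limma), with all 8 switched livers above the lifelong mean. Hnf4a, a hepatocyte transcription factor, differed by -0.27 (SE 0.09, adjusted p = 0.0815, limma) between 24 and 6 months.

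Genes that serve P450 enzymes in general passed in 0 cases in each of the 4 comparisons. Over all probe sets 0.0197% to 4.73% passed, so 0 in lists this short does not show that they were unchanged. Por, which encodes P450 reductase, and Fdxr had no probe set naming them alone and were not measured. Of 5 measured electron donors and partners of 7, Cyb5r3, a cytochrome b5 reductase, had the smallest p, at 0.24 (SE 0.07, adjusted p = 0.0958, limma) between 12 and 6 months. Of 10 measured genes of haem synthesis and breakdown of 12, Alas1, the rate-limiting enzyme of haem synthesis, differed by 0.20 (SE 0.11, adjusted p = 0.71, limma) between switched and lifelong livers. The medians of these lists lay between -0.08 and 0.11 in all 4 comparisons.

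The 8 measured hepatocyte markers had means over all livers of 12.55 to 13.62. The log2 of their summed level ranged 15.89 to 15.98 in switched livers, and 16.02 to 16.13, 15.86 to 16.09 and 15.88 to 16.05 in lifelong livers at 6, 12 and 24 months. Between 24 and 6 months 2 of the 8 fell, Tat by 0.42 and Tdo2 by 0.26 (adjusted p = 0.0355 and 0.0463, limma), against 2.63% of all probe sets. Each passed in 3 of the 13 fits that left out 1 liver, with adjusted p up to 0.095 for Tat and 0.114 for Tdo2 (limma). B cell markers rose for 3 of 4 between 24 and 6 months, against 2.1% of all probe sets, but for 0 to 4 without 1 liver and for 1 with the replicate number as a block. They had a summed level of 7.42 to 8.52 at 24 months and 7.17 to 7.60 at 6 months. Of 6 macrophage markers 1 rose, Lyz2, by 1.00 (adjusted p = 0.0334, limma), against 2.1% of all probe sets. The macrophage sums were 11.55 to 13.09 at 24 months and 11.58 to 12.02 at 6 months. Without 1 liver Lyz2 passed in 6 of 13 fits, and it did not pass under that block. Between 24 and 12 months, where 0.0253% of all probe sets passed, Cd79b was the 1 B cell marker that rose, but it passed in 3 of 14 fits without 1 liver and did not pass under the block. The T and NK cell, endothelial, stellate and cholangiocyte markers passed in 0 cases there. Between switched and lifelong livers 0 markers of any of the 7 lists passed, where only 0.0197% of all probe sets did. The sums in these groups were 7.46 to 8.78 and 7.42 to 8.52 for B cells and 11.77 to 13.56 and 11.55 to 13.09 for macrophages. The part of these cell types in the differences of Cyp2d9 was not tested.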

How the data were processed

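Whole-transcript arrays of 1 colour were hybridised with the liver RNA of 28 mice. The deposited values are log2 expression values that the authors made with RMA, per the submitters' processing notes; its version, the genome build, and whether 1 run normalised all arrays are not given in the sources used here. Of 35556 probe sets, 21218 name 1 gene, 1881 several and 12457 none in the annotation used. Array medians lay between 5.23 and 5.31 and correlations between arrays between 0.978 and 0.992. The number of arrays limits the precision.

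With limma 3.58.1 under R 4.3.3, a linear model of group and array batch was fitted to all probe sets of all arrays. Tests were two-sided at a Benjamini-Hochberg adjusted p of 0.05, adjusted over the whole array. Mice were separate animals. The code was tested on simulated data. Replicate numbers did not pair livers: r of their deviations ranged -0.14 to 0.14 over 39 same-numbered pairs. Genes named are the Cyp2d genes, their measured flanking genes, up to 4 of each list by smallest p, all list genes where few passed, and the 8 highest and 4 lowest in correlation with Cyp2d9 (4 highest for the others). The genes, lists and this rule were chosen with earlier results of these data known. Lists covered other Cyp2d genes, electron donors, haem, male-biased and female-biased genes, growth hormone and transcription factors, and markers of 7 cell types. Promoters came from RefSeq; alignment used Biopython 1.88, figures matplotlib 3.10.9.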

Additional observations from a re-analysis of the deposited data

Results flagged for a closer look

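In 4 of 40 groups of livers (10 Cyp2d genes in 4 groups), 1 liver stood apart from the rest by Dixon's gap ratio; chance alone gives about 1 in 20. Cyp2d9 in switched replicate 3, at 11.31, stood above the next switched liver at 10.80, and without it the difference of switched minus lifelong livers at 24 months was -0.62. Cyp2d22 in switched replicate 4 was low, at 11.51. Cyp2d37-ps in switched replicate 2 was high, at 10.88. Cyp2d12 in replicate 1 at 6 months was high, at 4.19, and without it the difference of 24 minus 6 months was -0.29 (adjusted p = 0.0328, limma).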

How the results depend on the processing

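Cyp2d9 kept its direction in all 4 comparisons and moved by less than its spread under the 11 alternatives (no batch term, batches apart, only the groups compared, a filter on dim probe sets, repeated quantile normalisation, centring, trend with robust moderation, array weights, a replicate block, 2 suffixed arrays left out) and without any 1 liver. Under the alternatives it ranged -0.77 to -0.44 for switched minus lifelong, -0.49 to -0.41 for 24 minus 6 months, -0.34 to -0.30 for 24 minus 12 months and -0.17 to -0.10 for 12 minus 6 months. Without 1 liver the ranges were -0.62 to -0.49, -0.47 to -0.39, -0.36 to -0.27 and -0.13 to -0.08.

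With the replicate number as a block, although the numbers pair no livers, Cyp2d9 differed by -0.49, -0.45, -0.32 and -0.13 in the same order, and the probe sets passing numbered 2, 1334, 0 and 122. The block left 0 of the other Cyp2d genes lower between 24 and 6 months and 0 male-biased genes lower in switched livers.

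Cyp2d10 passed in 0 settings. Differences near 0 changed sign with no call involved. Cyp2d26 was -0.01 for 12 minus 6 months without 12-month replicate 7 (up to 0.04 without another liver). For 24 minus 6 months it was -0.03 in batches G151 and G152, 0 without 6-month replicate 2 or 24-month replicate 2, and -0.01 without 24-month replicate 4 (up to 0.02 without another liver). For 24 minus 12 months it was 0 in batch G150 or after quantile normalisation, and 0.01 without the suffixed arrays, 12-month replicate 7 or 24-month replicate 7. Cyp2d22, switched minus lifelong, was 0.01 in batch G150, without the suffixed arrays or switched replicate 1, 0 without 24-month replicate 6 or 7, and 0.03 without switched replicate 4 (down to -0.04 without another liver).

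The number of probe sets passing moved most among these results. For switched minus lifelong it was 7, and 0 to 10 under the alternatives, with 0 when only those groups were fitted, and 1 to 36 without 1 liver. For 24 minus 6 months it was 1681 (3 to 2271, and 831 to 2370 without 1 liver), for 24 minus 12 months 9 (0 to 39, 1 to 124) and for 12 minus 6 months 210 (0 to 518, 7 to 546).

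Counts of list genes were recomputed in the same settings, a choice made after seeing the data. Between 24 and 6 months the 1 other Cyp2d gene became 0 in batch G150, in G151 and G152, with only the groups compared, and under the dim filter, which removes Cyp2d12; without 1 liver it was 0 to 1. The 7 male-biased genes became 1 in G150, 0 in G151 and G152 and 4 with only the groups compared (3 to 9 without 1 liver). The 2 female-biased genes became 1 in G150, 0 in G151 and G152, 4 under the dim filter or without the suffixed arrays, and 5 with array weights (2 to 4 without 1 liver). Between switched and lifelong livers the 1 male-biased gene became 0 in G150, in G151 and G152, with only the groups compared, array weights or no suffixed arrays (0 to 4 without 1 liver). The count of 2 female-biased genes there became 1 in G151 and G152, where neither Cyp2b13 nor Hao2 passed. It became 1 without the suffixed arrays, where Hao2 did not pass, and 0 with only the groups compared (1 to 4 without 1 liver). The 1 female-biased gene between 12 and 6 months became 0 in G150, in G151 and G152 and with only the groups compared (0 to 1 without 1 liver). For the cell markers, the 2 hepatocyte markers lower between 24 and 6 months became 0 to 3 under the alternatives (1 with the block) and 0 to 3 without 1 liver. The 3 B cell markers higher there became 0 to 3 (1 with the block) and 0 to 4, the 1 macrophage marker 0 to 1 (0 with the block) and 0 to 1, and the 1 B cell marker higher between 24 and 12 months 0 to 2 (0 with the block) and 0 to 4. Fits of fewer arrays have fewer degrees of freedom; other causes were not tested. Using the mean of several probe sets was not run, since each Cyp2d gene has 1. Detection above background was not measured in the deposited values, so changes of dim genes are less certain.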
